A study of Caenorhabditis elegans with 2 samples.

Results

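Potassium channel genes were examined in whole young adult Caenorhabditis elegans raised on 2 bacterial foods. Members were chosen by symbol: twk, kqt, shk, shl, kvs, irk, kcnl and slo genes, with egl-36, egl-2, unc-103, unc-58, sup-9, exp-2 and egl-23. This gave 70 genes, 67 of which are among the 19806 named genes with a probe on the array, and no gene carried the symbol egk. One group of N2 worms had been fed Escherichia coli OP50, the standard laboratory food, and the other soil-isolated Lysinibacillus sphaericus, from hatching to young adulthood at 20 °C. Both groups were whole worms of the same strain and stage, and total RNA of each was hybridised as Cy3-labelled cRNA to 1 one-colour microarray, called here the OP50 array and the Lysinibacillus array. With 1 array per diet there is no replicate, no test between the diets was made, and every difference describes these 2 RNA samples.

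Potassium channels are membrane pores that let potassium leave the cell, which sets the resting potential and ends action potentials in nerve and muscle. Two-pore domain (TWK) channels carry leak currents. Voltage-gated channels open on depolarisation, SLO and KCNL channels follow intracellular calcium or other ions, and inward rectifiers pass current near rest. The worm has many TWK genes, most of them expressed in neurons or muscle, and mutants of several channels were first found through defects of movement or egg laying.

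Levels below are log2 of the processed signal relative to the 75th percentile of the same array, so 0 is the 75th percentile and most members lie below it. Differences are L. sphaericus-fed minus OP50-fed. A gene counts as measured if the scanner software flagged at least 1 of its probes as well above background on the 2 arrays alike, and its difference is the median over such probes. Of the 70 genes, 57 were measured, 7 were above background on the OP50 array only, 1 on the Lysinibacillus array only, and 2 (twk-4 and twk-10) on neither. The genes kqt-3, irk-3 and twk-49 were not analysed here because no probe was matched to them.

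**Figure D1:**
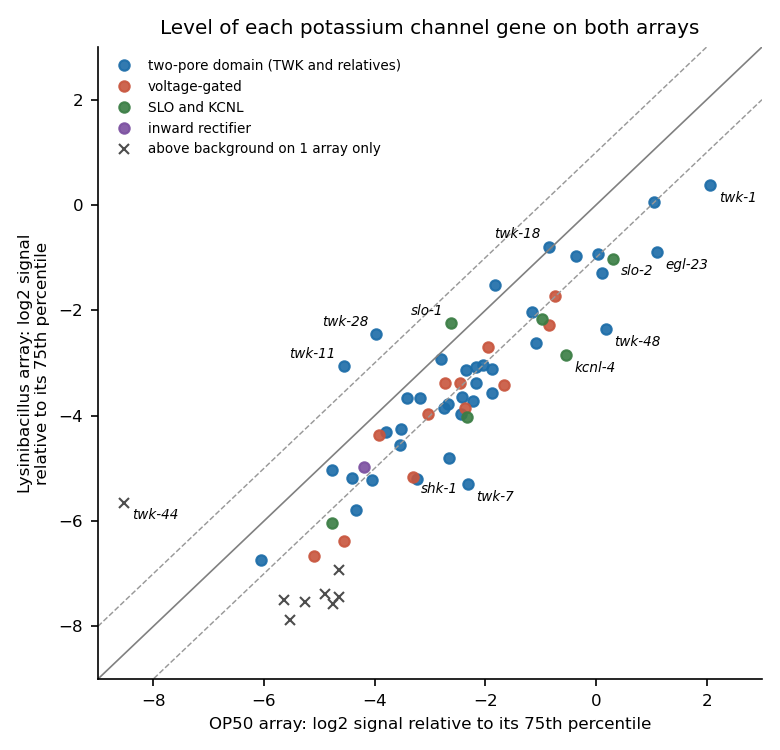
Level of each potassium channel gene on the OP50 array (x axis) and on the Lysinibacillus array (y axis), as log2 signal relative to the 75th percentile of that array. The solid line marks equal levels and the dashed lines a 2-fold difference. Most genes lie below the solid line, 33 of 57 measured genes at least 2-fold, while twk-28 and twk-11 lie above the upper dashed line. Crosses are genes above background on 1 array only.

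Most potassium channel genes were lower on the Lysinibacillus array. Among 57 measured genes, a difference of at least 2-fold downward was seen in 33 (57.9%) and upward in 2 (3.51%), against 32.6% and 22.1% of all 15300 measured genes. The median difference was −1.09, which is 0.90 log2 units below that of all measured genes (−0.20). The single differences ran from −2.98 for twk-7 to 1.51 for twk-28. Of the 57 genes, 52 were below 0, against 8307 of all 15300 measured genes, and the sign of many members changed with the scaling. Potassium channel genes were spread less widely than genes at large, with an interquartile range of 0.79 against 2.28. This was not particular to them. Every other channel, partner and marker list named below was also narrower than genes at large. Those ranges ran from 0.21 (calcium and sodium leak channels) to 1.80 (chloride channels and bestrophins).

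The share of lower genes depended on how the arrays were scaled, and many members sat close to 2-fold. Within 0.1 log2 units of a difference of −1, 5 genes lay just past it and 4 just short of it. With scaling on the median of all probes, 12 genes (21.05%) passed 2-fold downward and 3 (5.26%) upward, against 20.8% and 37.9% of all measured genes. With scaling on the ribosomal protein genes, 7 were lower and 4 higher, against 17.9% and 41.6% of all measured genes. With no scaling the counts were 3 lower and 6 higher, against 11.6% and 50.6% of all measured genes. After loess centring along signal, 16 (28.07%) were lower and 3 higher, against 24.9% and 24.7% of all measured genes, and the median was 0.54 below that of all genes. Most members were dim, 49 of the 57 having a mean level below the median of all measured genes. With only probes as bright as the median or brighter, 17 of 29 genes passed 2-fold downward, and their median relative to all genes was −1.26. The share of all measured genes under this filter is not given here. Among the 4015 measured genes within the interquartile range of the members' mean levels, a band chosen after seeing the data, 44.5% passed 2-fold downward and 15.4% upward under the 75th-percentile scaling. The share of lower members thus stood well above that of all genes with the 75th percentile and near or below it under these other scalings. The share of higher members was below that of all genes under each of the scalings drawn in the bar plot.

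**Figure D2:**
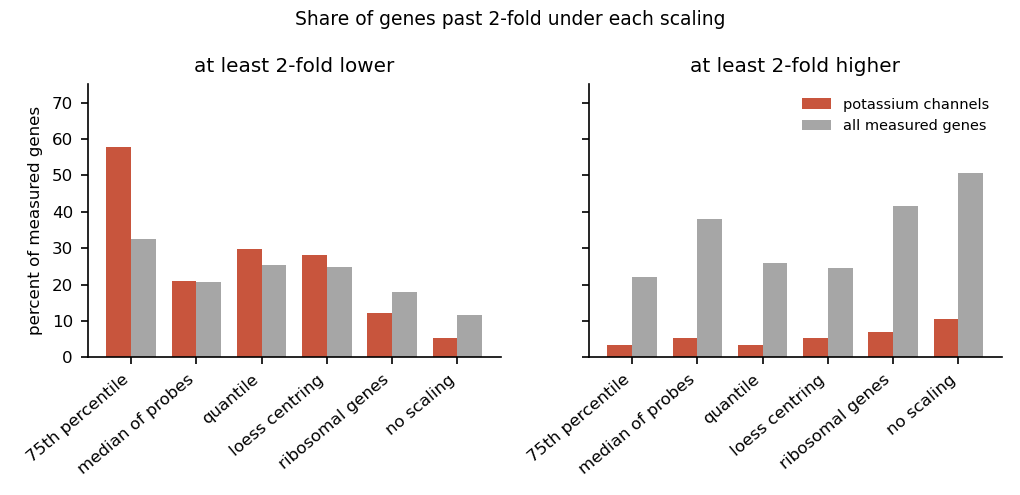
Percent of measured genes at least 2-fold lower (left) and at least 2-fold higher (right) on the Lysinibacillus array, for the 57 potassium channel genes and for all 15300 measured genes, under 6 ways of scaling the arrays. The lower share falls from 57.9% to 5.26% across scalings, while the higher share stays below that of all genes.

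The error between spots and probes of these 2 arrays was smaller than most of these differences. The SD over repeated spots of a probe was 0.15, and the median SD between probes was 0.15 over the 18 members with 2 or more measured probes. The scanner's own error of a member's difference ranged from 0.20 to 0.43, with a median of 0.21. For 39 of the 57 members the value rests on a single measured probe. These errors hold nothing of the spread between worm cultures, labellings or hybridisations, and nothing of the choice of scaling. On at least 1 array, 4 members (twk-20, kcnl-3, kvs-3 and unc-103) lay within 1 log2 unit of the dimmest probes still well above background, so their folds rest on dim signals. Without them, a setting added after seeing the data, 30 of 53 genes passed 2-fold downward and 2 upward. A share of all measured genes with the same exclusion is not given.

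Markers of tissues differed between the arrays as well. With the 75th percentile, the counts of markers read against 32.6% lower and 22.1% higher among all measured genes. Past 2-fold, 14 of 16 germline markers were higher and 0 lower, and the sum of their linear signals, in units of the array's 75th percentile, was 54.1 on the OP50 array and 196.6 on the Lysinibacillus array. Past 2-fold, 11 of 23 measured neuron markers were lower and 1 higher (sum 58.2 against 28.7), and unc-17 and cha-1 had no probe measured on both arrays. Of 7 pharyngeal muscle markers 3 were lower and 0 higher (sum 23.9 against 11.5), and of 19 measured body wall muscle markers 0 were lower and 1 higher (156.6 against 142.4). With ribosomal scaling, neuron markers numbered 5 lower and 1 higher, pharyngeal muscle 0 and 0, and body wall muscle 0 and 6. Of all measured genes, 17.9% were lower and 41.6% higher with that scaling. With no scaling the same markers numbered 3 and 4, 0 and 1, and 0 and 11 (57.9% higher). Of all measured genes, 11.6% were then lower and 50.6% higher. All 16 germline markers were higher with ribosomal scaling and with no scaling. With median scaling, 6 neuron markers were lower and 1 higher, against 20.8% and 37.9% of all measured genes. With the 75th percentile, of 11 measured intestine markers 4 were lower and 1 higher, and of 10 epidermis markers 0 and 2. The summed signal of the 57 potassium channel genes was 23.4 on the OP50 array and 10.2 on the Lysinibacillus array. The part that the makeup of the tissues plays in the channel differences was not tested, and in whole-worm RNA fewer cells of a type and less RNA per cell cannot be told apart.

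**Figure D3:**
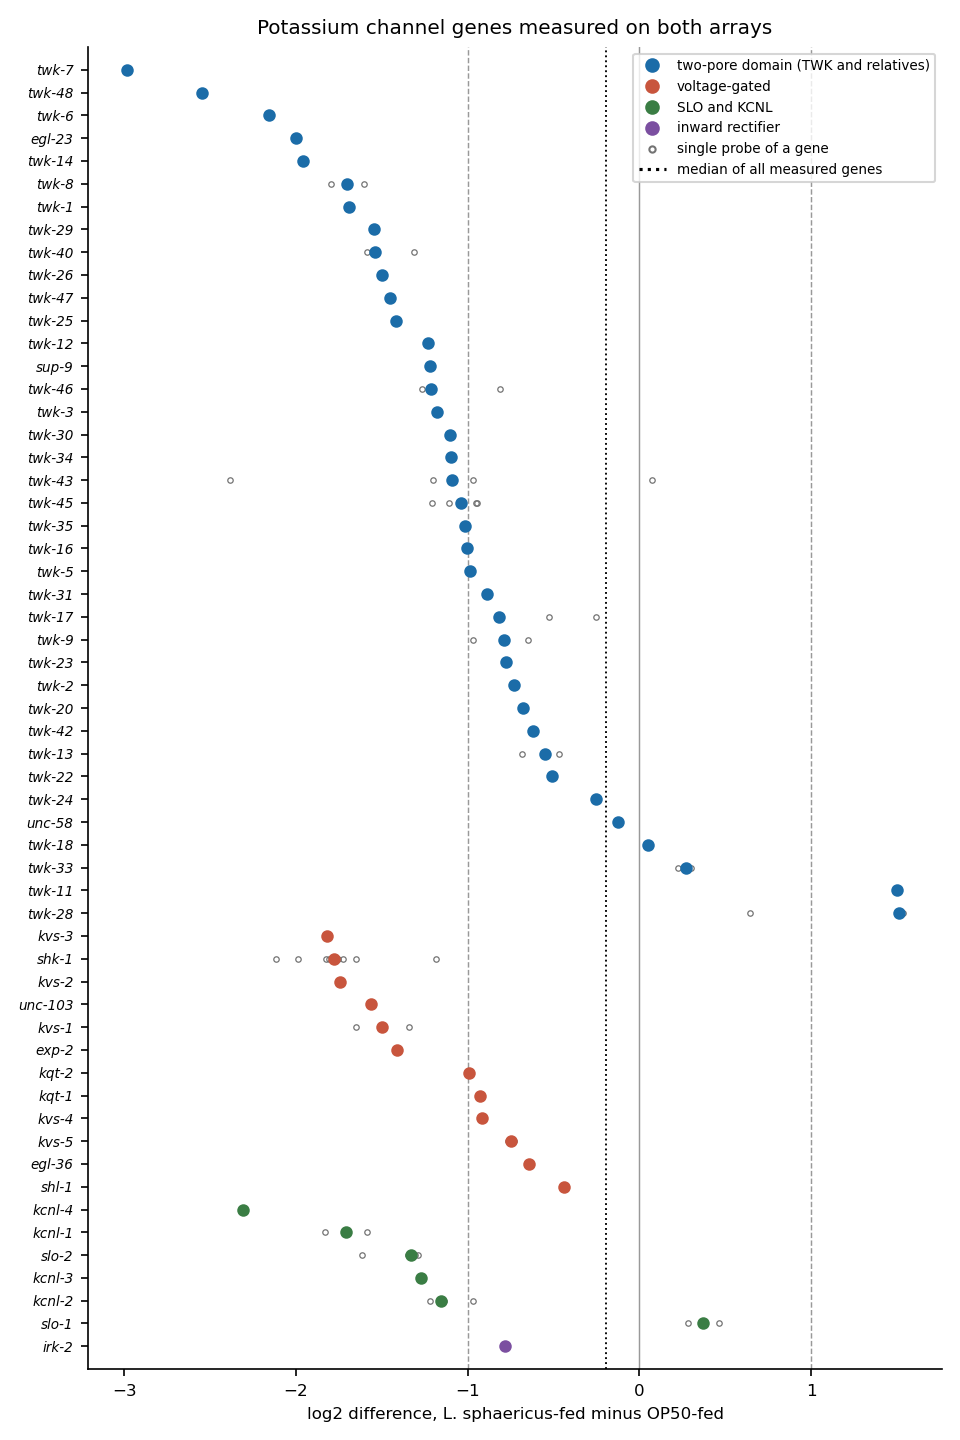
Log2 difference (L. sphaericus-fed minus OP50-fed) of each potassium channel gene measured on both arrays, ordered within 4 structural classes. Filled points are gene medians, open points the single probes of genes with several, dashed lines mark 2-fold, and the dotted line is the median of all measured genes (−0.20). Genes run from −2.98 (twk-7) to 1.51 (twk-28) and most lie below the dotted line.

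The two-pore domain class, 47 genes, had 38 measured, with 22 past 2-fold downward, 2 past 2-fold upward and a median of −1.06 (against 32.6% and 22.1% of all measured genes). It had 7 lower and 2 higher with median scaling (18.4% lower, against 20.8% of all genes). With ribosomal scaling 5 were lower and 3 higher (13.2% lower, against 17.9% of all genes). With no scaling 2 were lower and 5 higher (5.26% lower, against 11.6% of all genes). The largest difference was that of twk-7, a channel gene known from its effect on locomotor activity, with a level of −2.32 on the OP50 array and −5.30 on the Lysinibacillus array. This is 7.91-fold lower on 1 measured probe. The second probe of twk-7 was above background on the OP50 array only. The gene twk-48 followed, at 0.19 on the OP50 array against −2.36, or 5.84-fold lower. Both probes of twk-6 gave nearly the same difference (−2.15 ± 0.01, SD over 2 probes), with levels of −2.65 and −4.81. The gene twk-14 was at −3.24 against −5.20 (3.89-fold lower on the 1 measured of its 3 probes).

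The neuronal channel gene twk-40, known to set the resting potential of locomotor command neurons, was at −2.45 on the OP50 array and −3.96 on the other. Its difference was −1.54 ± 0.15 (SD over 3 probes), and all its probes lay below −1. The gene twk-8 was at −1.87 against −3.57, a difference of −1.70 ± 0.13 (SD over 2 probes). The gene twk-1, one of the brighter members, was at 2.07 against 0.38 and so 3.22-fold lower, and twk-29 was at −1.08 against −2.63 (2.92-fold lower). The 8 twk genes furthest down therefore include dim and bright signals alike.

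Genes of the class with a name from mutants differed among themselves. The gene egl-23, whose gain-of-function mutants fail to lay eggs, stood at 1.11 on the OP50 array and −0.89 on the Lysinibacillus array, 4.01-fold lower. The gene sup-9, which encodes the pore of a muscle channel complex with UNC-93 and SUP-10, was at −2.17 against −3.39 (2.33-fold lower). The gene unc-58, whose dominant alleles disturb movement, differed little, at −2.80 against −2.93. The body wall muscle channel gene twk-18, whose gain-of-function mutants are paralysed, was nearly level, at −0.84 against −0.79. Each of these 4 values rests on a single probe, and the sign of those of sup-9, unc-58 and twk-18 changed with some scaling.

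On the higher side stood twk-28 and twk-11. The gene twk-28 was at −3.97 on the OP50 array and −2.46 on the Lysinibacillus array, and its 3 probes lay at 0.64, 1.51 and 1.54. The gene twk-11 was at −4.56 against −3.06 (2.83-fold higher) on the 1 measured probe, which is that of transcript F20A1.7a. Its 3 probes for transcript F20A1.7c were below background on the OP50 array, and 1 of them was above background on the Lysinibacillus array (0.70). The others, below background on both arrays, were at 0.59 and −0.65. All 3 probes of twk-33 were slightly higher (0.27 ± 0.04, SD over 3 probes), with levels of −1.82 and −1.52, while twk-24 was at −3.41 against −3.66. The genes twk-28, twk-11, twk-33 and slo-1 were above 0 under every setting in which they were measured. The 2-fold calls did not hold throughout, with twk-28 at 0.66 with normexp background correction and 0.64 with its brightest probe. The gene twk-11 was at 0.63 with normexp and 0.64 with no filter on dim probes.

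Of the remaining twk genes, 11 were at least 2-fold lower, the furthest at −1.50: twk-26, twk-47, twk-25, twk-12, twk-46, twk-3, twk-30, twk-34, twk-45, twk-35 and twk-16. A further 9 lay between −0.98 and −0.51, namely twk-5, twk-31, twk-17, twk-9, twk-23, twk-20, twk-42, twk-13 and twk-22. The gene twk-2 was at −3.52 against −4.25 (−0.73). For twk-43 the 5 probes disagreed, from −2.38 to 0.07, with a median of −1.09 and an SD of 0.87. It is the one member with 2 or more measured probes on both sides of 0, and its brightest probe gave 0.07. By contrast, the 5 measured probes of twk-45 spanned only −1.21 to −0.95.

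Some two-pore domain genes were detected on 1 array alone, and no share of all genes is given beside their number. The genes twk-36, twk-21, twk-37, twk-32 and twk-39 were well above background on the OP50 array only. A fold is then a lower bound, for which the dim side is set to the dimmest level still well above background on that array, or to the probe's own level if that is higher. As measured, their OP50 levels ran from −5.52 (twk-39) to −4.64 (twk-36), with twk-21 at −4.65, twk-37 at −4.90 and twk-32 at −5.25. Their signals on the Lysinibacillus array, at the background, were −7.45 for twk-36, −6.94 for twk-21, −7.38 for twk-37, −7.54 for twk-32 and −7.87 for twk-39. These genes were at least 5.23-fold, 4.89-fold, 4.38-fold, 3.43-fold and 2.84-fold lower on the Lysinibacillus array. The reverse was seen for twk-44, at least 1.82-fold higher on the Lysinibacillus array on 1 of its 5 probes (−8.53 against −5.65). Its other 4 probes were below background on both arrays. Median, ribosomal and no scaling raise every difference by 0.64, 0.81 and 1.23 log2 units, so bounds on lower genes would be smaller there.

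The voltage-gated class, 14 genes, had 12 measured, all below 0 and below the median of all genes, while 8307 of all 15300 measured genes were below 0. Of the 12 genes, 6 passed 2-fold downward and 0 upward, and the median was −1.20 (against 32.6% and 22.1% of all measured genes). The count of lower genes was 3 with median scaling (25%, against 20.8% of all genes) and 2 after loess centring (16.7%, against 24.9%). It was 1 with ribosomal scaling (8.33%, against 17.9% of all genes) and 0 with no scaling (against 11.6%). The Shaker-type gene shk-1, which repolarises muscle and neurons, was the most densely probed member. Its level was −3.31 on the OP50 array and −5.16 on the Lysinibacillus array, and its 8 measured probes lay between −2.12 and −1.18 (−1.78 ± 0.28, SD over 8 probes). The weakest difference came from the probe for transcript ZK1321.2c (−1.18), which was still below −1. The gene kvs-1, whose channel works with KCNE-like MPS subunits in neurons, was at −2.36 against −3.86 (−1.50 ± 0.22, SD over 2 probes).

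The genes kvs-2 and kvs-3 were 3.34-fold and 3.53-fold lower, with levels of −1.67 against −3.41 and of −4.56 against −6.38. The gene exp-2, which encodes a potassium channel that ends the action potential of pharyngeal muscle, was at −0.86 against −2.27 and thus 2.66-fold lower. The ERG-type gene unc-103, which dampens excitability of egg-laying and male muscles, was at −5.10 against −6.66 on its 1 measured probe. The probe for transcript C30D11.1b was above background on the OP50 array only, and 1 of 3 probes for transcript C30D11.1a on the Lysinibacillus array only. The EAG-type gene egl-2 was above background on the OP50 array only, at −4.75 against −7.57, and thus at least 4.87-fold lower on the other.

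The other voltage-gated genes differed by less than 2-fold. The KCNQ-type gene kqt-2 was at −0.73 against −1.73 (−0.99), and kqt-1 at −3.04 against −3.97 (−0.93). The gene kvs-4 was at −2.46 against −3.38 (−0.92), and both probes of kvs-5 gave close values (−0.75 ± 0.03, SD over 2 probes, levels −1.94 and −2.69). The Shaw-type gene egl-36, known from egg-laying muscle, was at −2.73 against −3.37 (−0.64). The Shal-type gene shl-1, which carries the fast transient current of muscle and neurons, was at −3.92 against −4.36 (−0.44). All 6 turned above 0 with no scaling.

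The SLO and KCNL channels, 6 genes, were all measured, and 5 of them were at least 2-fold lower (median −1.30), against 32.6% of all measured genes. With median scaling 2 were lower and 1 higher (33.3% lower, against 20.8% of all genes). With ribosomal scaling or no scaling 1 was lower and 1 higher (16.7% lower, against 17.9% and 11.6% of all genes). The split lay between the 2 SLO genes. The gene slo-2 was at 0.30 on the OP50 array and −1.02 on the Lysinibacillus array, with its 4 probes between −1.61 and −1.29 (−1.33 ± 0.15, SD). The gene slo-1, which encodes the BK channel that limits transmitter release, went the other way, at −2.61 against −2.24, and both probes were slightly above 0 (0.37 ± 0.13, SD over 2 probes). Their differences lie 1.70 log2 units apart, a gap that does not depend on a common scaling factor.

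Among the small-conductance genes, kcnl-4 was at −0.54 against −2.85 and 4.95-fold lower on 1 probe. The gene kcnl-1 was at −2.32 against −4.03 (−1.71 ± 0.18, SD over 2 probes). The gene kcnl-2, known from the egg-laying system, was at −0.98 against −2.15, and its 4 probes agreed closely (−1.15 ± 0.11, SD). The gene kcnl-3 was at −4.77 against −6.04 (2.42-fold lower), close to background on the Lysinibacillus array. In the inward rectifier class, irk-2 was at −4.18 against −4.97 (−0.78). Both probes of irk-1, which acts in egg-laying motor neurons, were above background on the OP50 array only, with median levels of −5.63 and −7.50, at least 2.64-fold lower on the other.

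Genes whose products work with potassium channels went both ways. Of 18 partner genes, all measured, 8 passed 2-fold downward (44.4%) and 1 upward (5.56%), against 32.6% and 22.1% of all measured genes. The median of the partner genes was −0.68. With median scaling 2 were lower and 2 higher (11.1% each), against 20.8% and 37.9% of all measured genes. The KCNE-like subunit genes mps-1 and mps-3 were lowest, both at −2.45. The highest was erg-28, needed for traffic of SLO-1 to the cell surface, at 1.16, and next was sup-10 at 0.59 (2 probes). The genes of the SUP-9 complex thus lay at −1.22 (sup-9), −0.45 (unc-93), −0.48 (sup-18, which acts upstream of it) and 0.59 (sup-10). The genes tied to SLO-1, which itself was at 0.37, lay at −1.26 (ctn-1), −1.15 (islo-1), −1.12 (bkip-1), −0.41 (stn-1), −0.40 (dys-1), 0.05 (dyb-1) and 1.16 (erg-28). None of ctn-1, islo-1 and bkip-1 passed 2-fold under median scaling, where the 2 lower partner genes were mps-1 and mps-3.

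Other channel lists had medians in the same range, and no test of a difference between lists was possible. Of 13 measured genes of calcium and sodium leak channels, 7 passed 2-fold downward and 0 upward (median −1.01), from nca-2 at −1.32 and tmc-1 at −1.21 to nlf-1 at −0.11 and unc-68 at −0.09. Of 28 measured acetylcholine receptor subunit genes, 16 were lower and 0 higher (median −1.10), from acr-5 (−2.92) and acr-20 (−2.48) to acr-8 (0.62) and acr-12 (0.64). Of 28 measured chloride channel and bestrophin genes, 14 were lower and 1 higher (median −0.86), from best-1 (−5.12) and best-11 (−3.12) to best-26 (0.78) and clh-5 (1.08). These counts read against 32.6% lower and 22.1% higher among all measured genes. With median scaling these lists had 0 lower and 0 higher, 9 and 3, and 9 and 3, in that order. Of all measured genes, 20.8% were lower and 37.9% higher with that scaling. Neuron markers ran from egl-3 and egl-21 (−3.34 and −3.07) to snb-1 and unc-119 (−0.00 and 1.11), with a median of −0.88.

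**Figure D4:**
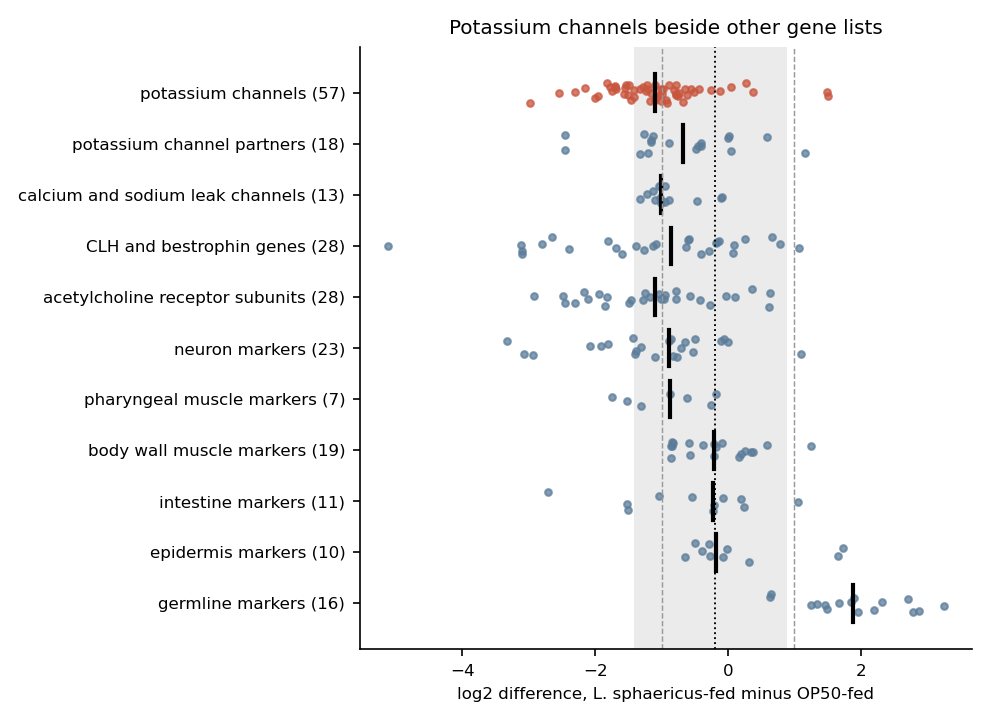
Log2 difference of each measured gene (points) in the potassium channel list, in other channel and partner lists and in tissue marker lists, with the number measured in brackets. Black bars are list medians, the dotted line and grey band are the median and interquartile range of all measured genes, and dashed lines mark 2-fold. The potassium channel median (−1.09) lies near those of the other channel lists and the neuron markers (−0.88), below that of body wall muscle (−0.21) and far below that of the germline (1.88).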

How the data were processed

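The authors deposited linear scanner intensity per spot with flags for background, saturation and outliers (other quantities), read with Agilent Feature Extraction 11.0.1.1 per the file headers, which also place both arrays on 1 slide and in 1 scan. The deposited series table holds the same intensity per probe, within 0.01 log2 units for 43596 and 43594 of 43603 probes. From 43803 non-control spots, 36 outlier spots were left out, and none was saturated. The log2 processed signal was averaged over the spots of a probe, and each array's 75th percentile was subtracted (signals of 1440 and 3368 for OP50 and L. sphaericus). Of 43579 probes, 34297 were named through systematic names or accessions in a RefSeq table of WBcel235, and 31043 were well above background on both arrays. Coordinates are left out, since the design of the array names another build. Spots well above background were 76.1% and 75.5%. The number of arrays limits the precision.

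Members and lists were chosen with earlier results of these data known. Each member is named, and levels are given for all measured members outside the twk genes, the 8 lowest and 5 highest twk genes, 6 preset ones and all above background on 1 array only. From channel lists the 2 lowest and 2 highest genes are named. Levels are medians over probes, so with several probes they need not subtract to the difference. The scripts were tested on simulated data. The normexp alternative (limma 3.58.1, offset 50) used the median spot signal, because no mean spot signal was read here. Python 3.11.15 was used.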

Additional observations from a re-analysis of the deposited data

How the results depend on the processing

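Scaling moved the count of potassium channel genes at least 2-fold lower (33) most: it was 12 with median scaling, 17 after quantile normalization, 16 after loess centring, 7 with ribosomal scaling and 3 with no scaling. The quantile share was 29.8%, against 25.5% of all measured genes. Other settings raised the count, to 39 with the 75th percentile over probes well above background on both arrays and 36 with normexp. With no filter on dim probes 40 of 67 genes were lower. The count was 17 of 29 genes when only probes as bright as the median or brighter were used, and 12 at a 3-fold threshold. Of the 18 genes with at least 2 measured probes, 7 had all of those probes past the threshold. For the bright-probe, 3-fold and 2-probe settings no share of all measured genes is given beside the lower or the higher count. The same holds for normexp, no filter on dim probes, the brightest probe and the 75th percentile over detected probes. The count of genes at least 2-fold higher (2) became 6 with no scaling, 4 with ribosomal scaling, 1 (of 67 genes) with no filter on dim probes and 1 with the brightest probe. It was 0 with normexp, 0 with bright probes only, 0 at 3-fold and 0 with at least 2 probes past the threshold. The median relative to all genes (−0.90) was −0.59 after quantile normalization, −0.54 after loess centring, −0.70 with normexp, −0.70 with no filter and −1.26 with bright probes only, below 0 in every setting run. The deposited table, kept outlier spots and the mean over probes changed none of these 3 results by over 1.5 times.

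With no scaling, 10 genes called lower turned above 0: kcnl-2 (0.073), sup-9 (0.0059), twk-16 (0.22), twk-3 (0.048), twk-30 (0.12), twk-34 (0.13), twk-35 (0.21), twk-43 (0.14), twk-45 (0.19) and twk-46 (0.015). With the brightest probe, twk-43 turned to 0.072. Over all settings 23 of 57 genes stayed below 0, 4 stayed above, and 30 lay on both sides. No scaling moved the median of all genes by 1.23 log2 units, median scaling by 0.64, ribosomal scaling by 0.81, and quantile and loess by 0.29 each. Detection limits apply to the 8 genes above background on 1 array only. No paired analysis was possible because each diet has 1 array.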
